A study of Mus musculus with 6 samples.

Results

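Immediate early genes are the genes that cells transcribe first after a stimulus. The 34 described here were taken by symbol from a list drawn up with earlier results of these data known, and all 34 were found among the 32285 genes of the deposited tables. They comprise 7 genes of AP-1 type factors (Fos, Fosb, Fosl2, Jun, Junb, Jund, Atf3), 4 EGR zinc-finger factors (Egr1 to Egr4), the 3 orphan nuclear receptors Nr4a1, Nr4a2 and Nr4a3, 10 other regulators of transcription or growth (Npas4, Ier2, Ier5, Btg2, Klf4, Per1, Gadd45b, Gadd45g, Tiparp, Csrnp1), 4 phosphatases and 1 kinase of the signalling path (Dusp1, Dusp4, Dusp5, Dusp6, Sik1), and 5 effectors at the synapse or in secretion (Arc, Homer1, Nptx2, Vgf, Ptgs2). The study sequenced RNA from the septal area of the brain of wild type mice in 6 libraries, all of 1 group with no treatment named. The septal area is a midline region of the forebrain whose lateral part holds mostly inhibitory neurons. No agent, age, sex, number of animals or dissection time is given in the sources used here, so the levels below are those of brains with no stated stimulus. Nothing states that the 6 libraries are separate animals, so the p-values below measure how these 6 samples spread, and that spread may be technical.

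In neurons, calcium that enters during firing activates kinases such as those of the CaMK and MAPK paths, which act on factors already bound to DNA (CREB, SRF with its ELK partners, MEF2). Within minutes these switch on the immediate early genes, whose transcription factor products then switch on a later set that includes secreted factors such as BDNF. Dual-specificity phosphatases of the Dusp family shut the MAPK signal off again, and SIK1 restrains CREB's coactivators. The same genes also respond to growth factors, stress and tissue handling in glia and in vessel cells.

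Each library was read by droplet sequencing, in which every nucleus gets a barcode and every RNA molecule a unique molecular identifier (UMI). A level is given below in CPM, the UMIs of a gene per 1000000 UMIs of all nuclei of a class in a library, as mean ± SD over the 6 libraries (n = 6). Of 55537 barcodes, 54623 had at least 500 detected genes (7155 to 11007 per library, with medians of 5175 to 6863 UMIs). Libraries held 70183544 to 95175260 UMIs, had up to 0.433% of their barcodes in common, and no library was a copy of another. Nuclei were sorted into classes by marker genes and every class name therefore means "like" that cell type. There were 22063 neurons, of which 9435 were lateral septum-like, 487 striatal-like, 1028 glutamatergic-like and 212 cholinergic-like. Of the other nuclei 10529 were astrocyte-like, 7411 oligodendrocyte-like, 2267 precursor-like, 1012 microglia-like, 826 endothelial-like, 226 pericyte-like and 2867 ependymal-like. The 5435 nuclei with markers of several classes (9.95%) were removed as likely doublets, while a doublet of neurons of the same kind is not caught this way. RNA of neuron markers was also counted outside neurons, and whether free RNA carried it there was not tested. The 7 neuron markers summed to 9266 CPM in neurons, 968 in astrocyte-like, 1013 in oligodendrocyte-like, 1433 in microglia-like and 1710 in endothelial-like nuclei.

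Neurons held more RNA of most EGR, NR4A and synaptic members than either main glial class. In some smaller classes members of these families stood above neurons, without a test. Nr4a3, Fos and Npas4 stood at 183.48%, 173.85% and 121.22% of their neuron level in ependymal-like nuclei. Egr1, Arc, Nr4a1 and Junb stood there at 90.19%, 75.36%, 69.89% and 17.15%. Nr4a2 stood at 1086.03% of its neuron level in endothelial-like nuclei. Against astrocyte-like nuclei, 31 of the 34 genes were tested, of which 17 were higher in neurons, where 42.3% of the 18319 genes tested were higher, and 11 were lower, where 40.4% were lower. The share of all genes called in either direction was 82.7%, so that calls were common between these classes. The median log2 difference of the tested members was 1.01, beside 0.03 over all genes. Nr4a3, an orphan nuclear receptor, stood at 15.8, 16.2, 16.9, 22.3, 19.7 and 29.8 CPM in the neurons of replicates 1 to 6 and at 2.04, 3.51, 3.34, 6.93, 5.23 and 6.83 CPM in the astrocyte-like nuclei. The groups did not overlap, and the log2 difference was 2.21 (SE 0.10, adjusted p = 3.97e-14, edgeR's quasi-likelihood test with Benjamini-Hochberg adjustment over all genes). The other leading members came from several families. Egr3, an EGR factor, stood at 10.9 ± 1.57 against 2.53 ± 0.778 CPM, a log2 difference of 2.18. Fosl2, a partner of JUN proteins in AP-1, stood at 5.51 ± 1.63 against 1.27 ± 0.573 CPM, also 2.18. Dusp5, a phosphatase of nuclear ERK, stood at 2.46 ± 0.664 against 0.476 ± 0.251 CPM, a log2 difference of 2.45.

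The members measured most often as marks of neuronal activity followed the same direction with 1 exception. Npas4, a factor that responds to calcium in neurons, was 1.96 higher on the log2 scale in neurons than in astrocyte-like nuclei (7.21 ± 1.22 against 1.97 ± 0.85 CPM). Arc, which acts in the removal of glutamate receptors from synapses, was higher by 1.86 (2.70 ± 0.556 against 0.782 ± 0.354 CPM). Nr4a1 was higher by 1.84, Junb by 1.29 and Egr1 by 1.25, each in 6 of 6 libraries. The exception was Fos, at 2.01 ± 1.12 CPM in neurons and 1.87 ± 1.1 CPM in astrocyte-like nuclei, with a log2 difference of 0.20 that did not pass (adjusted p = 0.372). Its mean level in astrocyte-like nuclei was 93.13% of that in neurons, with an 8.17-fold range between the libraries. The neuron markers stood there at 968 against 9266 CPM, and the source of the Fos RNA was not tested.

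The members higher in astrocyte-like nuclei included parts of the same families. Dusp6, the phosphatase of cytoplasmic ERK, stood at 1.29 ± 0.146 CPM in neurons and 6.92 ± 0.905 CPM in astrocyte-like nuclei, a log2 difference of -2.35. The stress-response gene Gadd45g stood at 2.49 ± 0.239 against 10.3 ± 1.26 CPM, a log2 difference of -1.96. Jun, the core AP-1 partner, was lower in neurons by 1.79 and Klf4, a zinc-finger factor, by 1.89 on the log2 scale. No library of either class overlapped with the other for these 4 genes. How many of all genes were free of overlap was not counted, in this or any other comparison of classes. Tiparp, an ADP-ribosyltransferase, was also higher in astrocyte-like nuclei, at 104 ± 10.5 against 52.1 ± 8.30 CPM.

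Against oligodendrocyte-like nuclei, 21 of 31 tested members were higher in neurons (43.4% of all 17912 genes tested were higher) and 4 were lower (37.5% of all genes, and 80.9% in either direction). Sik1, the kinase that restrains CREB coactivators, led at 13.7 ± 1.99 against 1.49 ± 0.522 CPM, a log2 difference of 3.09 (adjusted p = 2.15e-13 in edgeR's test). Fosl2 was higher by 2.81, Nr4a3 by 2.52, Nr4a1 by 2.17, Fos by 2.05, Npas4 by 1.91, Junb by 1.53 and Egr1 by 1.11. In the other direction stood Jun at 2.05 ± 0.275 against 9.84 ± 1.16 CPM, Jund at 3.49 ± 0.569 against 11.5 ± 2.26 CPM and Csrnp1 at 0.344 ± 0.0843 against 1.48 ± 0.543 CPM. Jun and Jund, both AP-1 partners of FOS proteins, were thus higher in oligodendrocyte-like nuclei while the FOS family was higher in neurons. Arc was the remaining lower member, at 2.70 ± 0.556 against 3.40 ± 1.03 CPM with overlapping libraries (log2 difference -0.42, adjusted p = 0.0277 in edgeR's test). Arc no longer passed without replicate 1 (adjusted p = 0.0961 in edgeR's test), without replicate 5 (0.0955), without the filter on low counts (0.0854), with no replicate block (0.0834) or in DESeq2 (0.07).

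**Figure D1:**
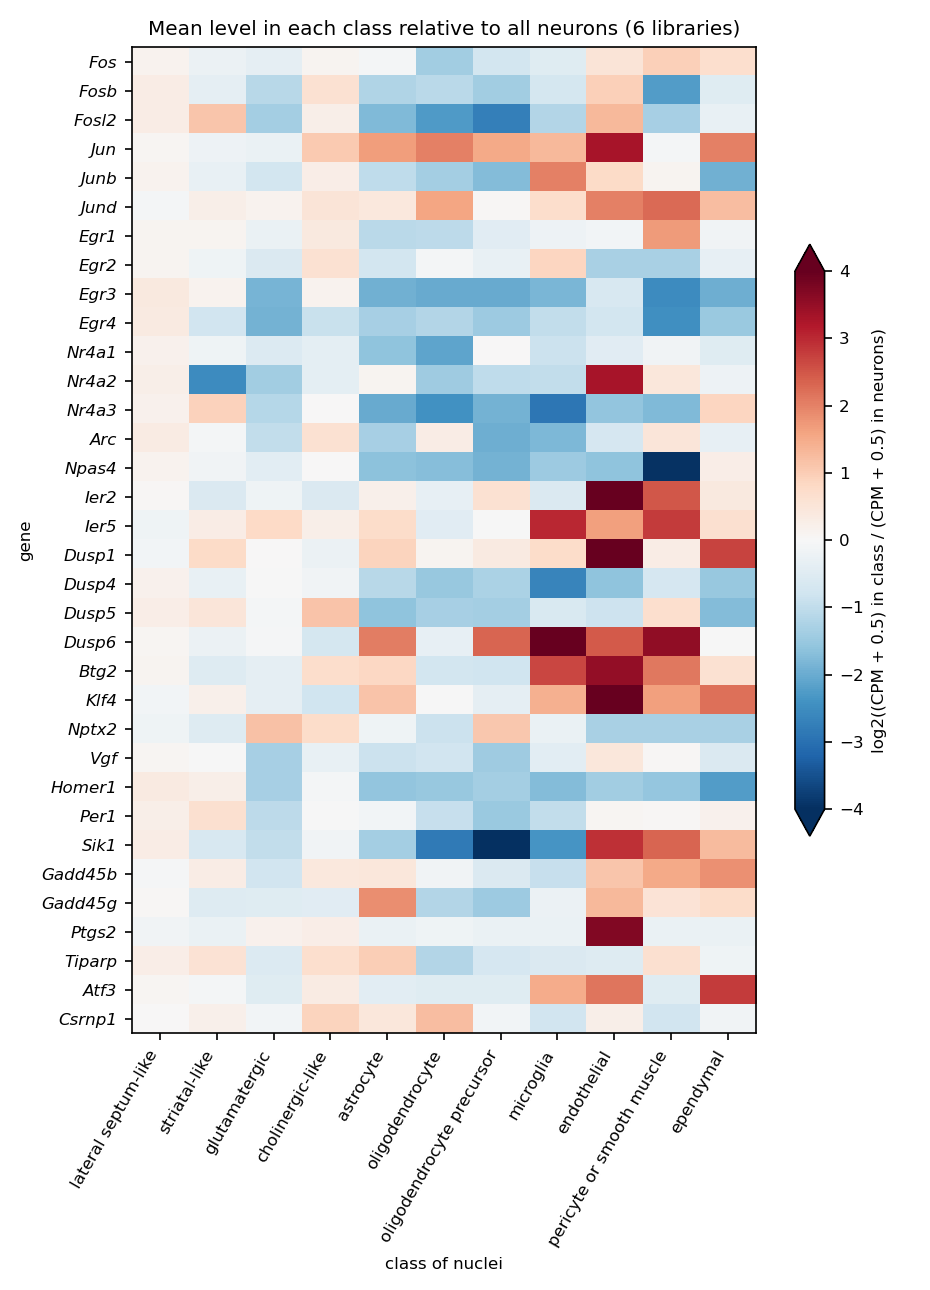
Heat map of the 34 genes (rows) by marker-gated class (columns), coloured by the log2 ratio of the CPM in a class to the CPM in all neurons with 0.5 CPM added to both, averaged over 6 libraries. Klf4, Sik1 and Dusp1 stand out in the endothelial-like class (94.1, 107 and 47.5 CPM), Dusp6 and Junb in the microglia-like class (32.6 and 17.9 CPM), and Jun and Jund are above neurons in the oligodendrocyte-like class (9.84 and 11.5 CPM).

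The class with the highest summed level of these genes outside the lateral septum subtypes was not neuronal. Without Homer1 and Tiparp, which were the most abundant members in neurons, the members summed to 541 ± 139 CPM in endothelial-like nuclei (413 to 788 CPM), against 154 ± 28.8 in neurons, 107 ± 15.5 in astrocyte-like, 73.0 ± 5.07 in oligodendrocyte-like and 206 ± 61.7 CPM in ependymal-like nuclei. Klf4, known in vessel lining as a gene that blood flow induces, stood at 84.3, 61.1, 86.1, 78.3, 151 and 104 CPM in endothelial-like nuclei of replicates 1 to 6. Its level in astrocyte-like nuclei was 1.39 ± 0.288 CPM, so no library overlapped. The log2 difference was 5.78 (SE 0.25, adjusted p = 1.07e-65 in edgeR's test, 176 UMIs in endothelial-like nuclei). With each nucleus thinned to 2000 UMIs, which left 443 of 826 endothelial-like nuclei, Klf4 was detected in 16.0 ± 3.48% of them, in 0.229% of astrocyte-like nuclei and in 0.061% of neurons (unthinned 16.5%, 0.55% and 0.467%). Endothelial markers summed to 9407 to 11027 CPM in the endothelial-like class and to 12.3 to 14.7 CPM in the astrocyte-like class.

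In all, 11 of the 18 members tested were higher in endothelial-like than in astrocyte-like nuclei, where 22.0% of the 13028 genes tested were higher, and 1 was lower, where 30.4% were lower (52.4% in either direction). Sik1 stood at 107 ± 24.7 against 5.10 ± 2.82 CPM, a log2 difference of 4.18 in 6 of 6 libraries. Dusp1, a phosphatase of stress kinases, stood at 47.5 ± 27.2 against 3.56 ± 0.695 CPM, a log2 difference of 3.44. Fosl2 was higher by 3.18 on 26 UMIs. Junb was higher by 1.84 in 5 of 6 libraries, on 14 UMIs, and Nr4a1 by 1.01 on 22 UMIs. Nr4a2 (48.1 ± 16.7 against 4.79 ± 1.26 CPM) and the antiproliferative gene Btg2 (53.6 ± 24.7 against 8.04 ± 2.44 CPM) were higher too. Tiparp was the 1 lower member, at 36.4 ± 13.1 against 104 ± 10.5 CPM. The count of lower members was 2 without replicate 5. Nr4a1 no longer passed without replicate 1, 3 or 4 (adjusted p = 0.108, 0.0838 and 0.0662 in edgeR's test), with a stricter gate (0.337) or without the filter on low counts (0.0693).

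Members known as marks of neuronal activity were near the floor of what this class could show. Fos was seen as 6 UMIs, Egr1 as 12, Arc as 3 and Npas4 as 4 in all endothelial-like nuclei together, and none of them was tested. Ptgs2, the inducible cyclooxygenase, was not tested either, with 14 UMIs in endothelial-like nuclei (7.46 ± 6.55 CPM) and a listed level of 0 in astrocyte-like nuclei. Ier2 stood at 15.7 ± 8.94 CPM there on 29 UMIs.

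In microglia-like nuclei Junb, Dusp6, Btg2 and Ier5 were the higher members. Of 17 members tested against astrocyte-like nuclei, 4 were higher (29.5% of 13339 genes were higher) and 6 lower (33.6% of genes, and 63.1% in either direction), shares near those of all genes. The count of lower members was 4 to 5 when any library was left out and 4 in DESeq2. Junb stood at 20.3, 23.1, 17.2, 20.5, 7.45 and 18.8 CPM in the microglia-like nuclei of replicates 1 to 6, against 1.73 ± 0.852 CPM in astrocyte-like nuclei. All 6 libraries lay above every astrocyte-like value, with a log2 difference of 3.14 (adjusted p = 5.74e-14 in edgeR's test, 50 UMIs). Dusp6 (32.6 ± 6.64 CPM), Btg2 (29.9 ± 10.5 CPM) and Ier5 (11.9 ± 4.89 CPM) were higher by 1.96, 1.65 and 2.22 on the log2 scale. Tiparp was lower by 1.82 and Per1, a clock gene that also responds to CREB, by 1.13. Egr1 (5.95 ± 2.94 against 3.06 ± 0.807 CPM) and Nr4a1 (8.76 ± 5.39 against 4.98 ± 2.19 CPM) did not pass, although Nr4a1 did without replicate 6 (adjusted p = 0.0449 in edgeR's test). Fos, Arc and Npas4 had too few UMIs in microglia-like nuclei to be tested (3, 1 and 6 UMIs).

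Among neurons, the lateral septum-like class stood above the glutamatergic-like class for many members. Against glutamatergic-like neurons 14 of 27 tested members were higher and 2 lower, where 19.3% of the 15994 genes tested were higher and 19.3% lower (38.6% in all). The median log2 difference was 0.78 for the members and -0.01 for all genes. Egr3 stood at 12.04, 11.3, 13.8, 14.5, 17.8 and 17.7 CPM in lateral septum-like neurons of replicates 1 to 6 and at 1.58, 2.49, 0.379, 3.70, 3.75 and 3.94 CPM in glutamatergic-like neurons, with no overlap (log2 difference 2.53, adjusted p = 5.53e-07 in edgeR's test). Egr4 was higher by 3.65 (2.98 ± 1.47 against 0.237 ± 0.267 CPM), Fosb by 2.12, Nr4a2 by 1.98, Arc by 1.67, Junb by 1.05 and Nr4a1 by 0.73. Egr4 was detected in only 0.307% of the 1028 glutamatergic-like nuclei (mean over libraries, unthinned). It passed the filter on low counts through the lateral septum-like class, so its difference was fixed in part by that filter. Nptx2, a secreted pentraxin that gathers glutamate receptors, went the other way at 0.596 ± 0.411 against 2.31 ± 1.24 CPM. Ier5 was lower as well, by 1.27. Fos, Egr1 and Npas4 did not pass, with log2 differences of 0.57, 0.41 and 0.59. Npas4 passed without replicate 1 or 5 (adjusted p = 0.0201 and 0.0388 in edgeR's test), and both Npas4 and Egr1 without the filter on low counts (0.0139 and 0.0435). With no replicate block Fosb and Junb did not pass (0.0739 and 0.0664). Summed without Homer1 and Tiparp, the members stood at 177 ± 41.0 CPM in lateral septum-like and 86.5 ± 17.3 CPM in glutamatergic-like neurons.

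Against the 487 striatal-like neurons 3 of 27 tested members were higher in the lateral septum-like class (18.3% of 15796 genes were higher) and 5 were lower (14.2% of genes, and 32.5% in either direction). Nr4a2 stood at 5.33 ± 2.30 against 0.360 ± 0.559 CPM with no overlap, a log2 difference of 3.36 (adjusted p = 1.29e-05 in edgeR's test). It was detected in only 0.487% of the 487 striatal-like nuclei (mean over libraries, unthinned). Nr4a2 thus passed the filter on low counts through the lateral septum-like class, and its difference was fixed in part by that filter. Sik1 stood at 17.0 ± 2.75 against 8.65 ± 1.90 CPM, and Egr4 was the remaining higher gene. The lower ones were Nr4a3 (22.8 ± 7.003 against 38.4 CPM), Fosl2, Dusp1, Per1 and Tiparp, all with overlapping libraries. With a stricter marker gate none of the 5 passed, and without replicate 1 or without replicate 2 the count was 3. Fos, Junb, Egr1, Nr4a1, Arc and Npas4 did not pass, with log2 differences of -0.14 (Egr1) to 0.56 (Fos). In this pair of classes 1 NR4A receptor was therefore higher, 1 lower, and Nr4a1 did not pass (0.30, adjusted p = 0.167).

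Within the lateral septum-like class, most tested members stood at higher levels in the nuclei that held the neurotensin transcript. Subtype gates were set on marker genes. The Nts gate was formed by 298 nuclei with at least 2 UMIs of Nts, the gene of the neuropeptide neurotensin (36 to 59 per library). Earlier results of these data had already named a lateral septum group by activity genes and Nts. Higher members in this gate were therefore known of beforehand, and the p-values for it are description and no independent support. Of 26 members tested against all other lateral septum-like neurons, 22 were higher, where 8.06% of the 15520 genes tested were higher, and 0 were lower, where 6.12% were lower (14.2% in either direction). The median log2 difference was 1.72 for the members and -0.03 for all genes. DESeq2 gave 21 higher and 0 lower, and at an unadjusted p under 0.05 edgeR gave 25 and 0. The 4 tested members that did not pass were Jund, Dusp5, Dusp6 and Gadd45g. Leaving out each library in turn gave 20 to 24 higher members.

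Nr4a2, Fosb, Fos and Nr4a3 had the largest differences in the Nts gate. Nr4a3 stood at 78.3, 86.6, 96.9, 102, 87.2 and 248 CPM in the Nts-gated neurons of replicates 1 to 6 and at 16.8, 13.9, 15.7, 19.0, 21.8 and 23.4 CPM in the other lateral septum-like neurons. Every Nts-gated value was above every other value, and replicate 6 was the highest of both (log2 difference 2.62, SE 0.13, adjusted p = 2.77e-13 in edgeR's test). Nr4a2 stood at 20.6, 23.3, 119, 17.8, 34.9 and 56.4 CPM against 1.86 to 6.30 CPM. Its libraries did not overlap either, with replicate 3 highest, and its log2 difference of 3.44 (SE 0.24) was the largest among the members. Fosb stood at 18.5, 6.66, 11.2, 2.55, 8.72 and 51.2 CPM against 0.632 to 2.93 CPM, a log2 difference of 3.14 with slight overlap. Fos stood at 5.15, 9.16, 14.0, 5.10, 3.96 and 38.6 CPM against 0.726 to 3.46 CPM. The Fos libraries did not overlap, and the log2 difference was 2.72 (SE 0.35, adjusted p = 1.84e-06 in edgeR's test), or 2.36 to 3.1 when any library was left out.

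Members of every other role were higher too. Egr3 stood at 65.9, 56.6, 88.4, 40.8, 69.0 and 81.7 CPM in the Nts gate, against 9.60 to 15.4 CPM elsewhere in the lateral septum-like class. Junb was higher by 2.23 (18.7 ± 11.2 against 3.896 ± 1.28 CPM), Arc by 1.91 (11.98 ± 4.26 against 3.17 ± 0.777 CPM), Egr1 by 1.83, Npas4 by 1.71 and Nr4a1 by 1.18. Homer1, a scaffold of glutamate receptors whose short inducible form these 3' counts cannot tell from its long form, stood at 924 ± 217 against 288 ± 29.9 CPM. Vgf, which encodes a secreted neuropeptide precursor, stood at 19.3 ± 4.50 against 9.03 CPM. The members without Homer1 and Tiparp summed to 604 ± 257 CPM against 158 ± 28.9 CPM, and the ratio of the sums was 2.68 to 5.23 across the libraries.

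Levels also stood in the order of the number of Nts molecules seen. Nuclei with 0 Nts UMIs (8692) had a summed level of 153 ± 29.1 CPM, those with 1 UMI (445) 246 ± 58.6 CPM and those of the gate 604 ± 257 CPM, as a description with no test. Fos followed this order in replicates 1 to 4, while in replicate 5 it stood at 9.15 CPM at 1 UMI and 3.96 CPM in the gate, and in replicate 6 at 1.65 CPM at 1 UMI and 3.56 CPM at 0 UMIs. Nts-gated nuclei were deeper, with library medians of 17052 to 20491 UMIs against 13379 to 16583 UMIs for the others. With only nuclei of at least 10000 UMIs in both classes, 22 members were again higher. The 7 neuron markers stood at 9821 ± 671 CPM in the gate and 9070 ± 281 CPM in the others. Of the Nts-gated nuclei, 23.49% also passed the Col25a1 Tll1 gate and 13.76% the Ano2 Ntf3 gate.

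**Figure D2:**
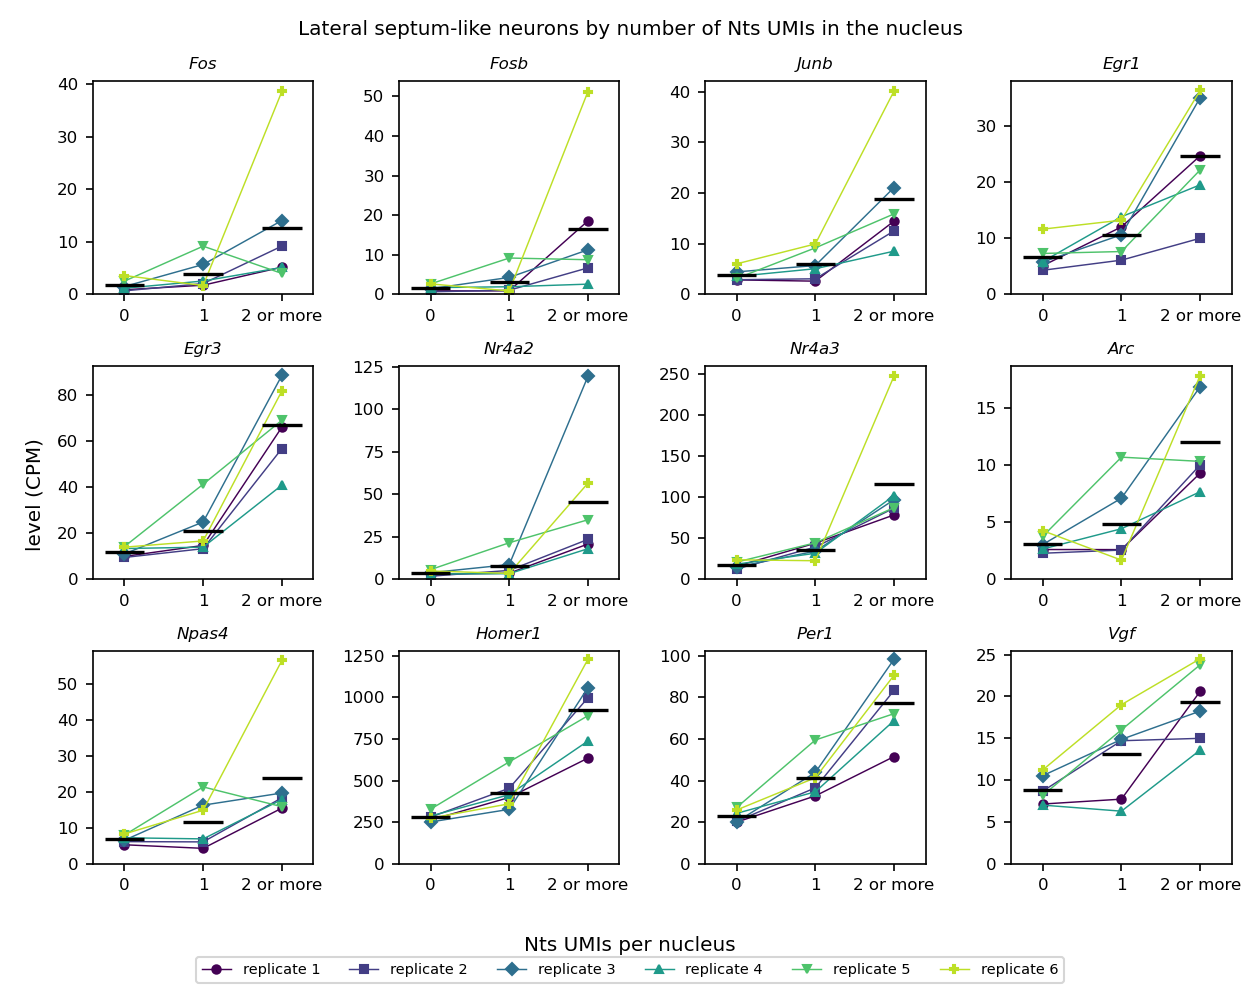
Levels in CPM (linear axes from 0) of 12 members in lateral septum-like neurons with 0, 1 and at least 2 Nts UMIs per nucleus, with 1 line per library and a black bar at the mean of the 6 libraries. Nr4a3 means go from 17.5 through 35.8 to 116 CPM, and Nr4a2 means from 3.57 through 7.47 to 45.4 CPM.

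The sequences just upstream of the RefSeq gene starts are shown for Nr4a3, Nr4a2 and Fos, the 3 of these leading members whose libraries did not overlap between the Nts gate and the other neurons. For Fos the gap between them was narrow, as said above. They are the 250 bases before the start in GRCm38.p6, 5′ to 3′ on the strand of the gene, from chr4:48045055-48045304 (+ strand) for Nr4a3, chr2:57124004-57124253 (- strand) for Nr4a2 and chr12:85473640-85473889 (+ strand) for Fos. Capitals mark TGACG or its reverse complement CGTCA, the core letters of the cAMP response element to which CREB binds.
Nr4a3: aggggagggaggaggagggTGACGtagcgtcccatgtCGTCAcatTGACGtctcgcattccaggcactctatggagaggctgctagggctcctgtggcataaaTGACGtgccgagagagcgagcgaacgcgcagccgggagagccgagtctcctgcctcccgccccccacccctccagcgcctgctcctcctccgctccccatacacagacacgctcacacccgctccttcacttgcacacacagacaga
Nr4a2: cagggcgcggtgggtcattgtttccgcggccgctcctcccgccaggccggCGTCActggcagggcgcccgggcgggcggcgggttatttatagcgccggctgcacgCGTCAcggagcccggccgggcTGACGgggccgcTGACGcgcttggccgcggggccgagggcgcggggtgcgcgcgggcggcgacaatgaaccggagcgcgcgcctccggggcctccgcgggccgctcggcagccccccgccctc
Fos: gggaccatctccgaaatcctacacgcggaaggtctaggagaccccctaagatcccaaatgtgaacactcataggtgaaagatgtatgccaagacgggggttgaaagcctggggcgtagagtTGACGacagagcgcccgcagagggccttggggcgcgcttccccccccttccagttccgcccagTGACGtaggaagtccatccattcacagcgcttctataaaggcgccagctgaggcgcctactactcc
The core letters occur 4 times upstream of Nr4a3, 4 times upstream of Nr4a2 and 2 times upstream of Fos.

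Promoters of 26 of the 34 members were in the RefSeq table, and 17 of these 26 (65.4%) held TGACG on either strand, as did 19.8% of the 27025 genes of the table. The full palindrome TGACGTCA, which contains TGACG, was found in 2 members (7.7%, against 1.77% of all genes), Btg2 and Dusp1. The EGR motif GCGGGGGCG was found in 4 members (15.4% against 2.93%) and the CArG box to which SRF binds in 2 (7.7% against 1.62%). The AP-1 motif TGANTCA was in 1 (3.8% against 7.82%) and the NR4A motif AAAGGTCA in 0 (against 1.55%). A gene counted as holding a motif if any of its listed starts did, and some members such as Csrnp1 and Egr2 have several. Members and all genes were not matched for number of starts or for base content. Such matches describe letters in these windows and not binding.

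Of the other 5 subtype gates, 4 had more members lower than higher against the rest of the class. Each of these comparisons sets a gate against all other lateral septum-like neurons, so they share nuclei and are given side by side. Beside the Nts gate, the gates held 1683 (Ano2 Ntf3), 1235 (Col25a1 Tll1), 881 (Calcr Esr1 Prlr), 375 (Col6a3 Tacr1) and 362 nuclei (Pax6 Eya4). In the Ano2 Ntf3 gate 14 of 27 tested members were lower, where 12.4% of 15716 genes were lower, and 0 were higher, where 14.5% of genes were higher (26.9% in either direction). edgeR gave 0 higher members also at an unadjusted p under 0.05, as did DESeq2 after adjustment. Fosb (1.05 ± 1.0 against 2.76 ± 1.78 CPM), Dusp6 (0.816 ± 0.376 against 1.58 ± 0.400 CPM), Fos (1.31 ± 1.07 against 2.59 ± 1.86 CPM) and the phosphatase gene Dusp4 (1.73 ± 0.505 against 3.36 ± 1.26 CPM) fell furthest, each lower in 6 of 6 libraries. Egr1 was lower by 0.55, Junb by 0.46 and Nr4a1 by 0.27, while Arc (-0.03) and Npas4 (-0.24) did not pass. DESeq2 called 8 members lower, and 5 were lower in the fit with no replicate block, where Fosb, Fos, Egr1, Junb and Nr4a1 did not pass. Junb also lost the call without replicate 1, 3 or 6 (adjusted p = 0.0819, 0.126 and 0.0637 in edgeR's test), with a stricter gate, in deeper nuclei and without the Nts-gated nuclei. Dusp6 lost it without replicate 2 or 6 (0.0733 and 0.0728), and Dusp6, Junb and Nr4a1 lost it in DESeq2 (0.102, 0.139 and 0.0529). Npas4 passed without replicate 1 (0.0319) and without the Nts-gated nuclei (0.0468).

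In the Calcr Esr1 Prlr gate, set on receptors for calcitonin, oestrogen and prolactin, 14 of 27 tested members were lower (7.82% of 15619 genes were lower) and 0 higher (7.58% of genes, and 15.4% in either direction). No member was higher at an unadjusted p under 0.05 in edgeR or after adjustment in DESeq2. Fosb stood at 0.834 ± 0.953 against 2.57 ± 1.67 CPM, Fos at 1.07 ± 1.249 against 2.46 ± 1.73 CPM and Arc at 1.754 ± 1.15 against 3.76 ± 0.922 CPM. Their log2 differences were -1.70, -1.31 and -1.15, each lower in 6 of 6 libraries although the ranges overlapped between libraries. Egr4 was lower by 1.02 and Junb by 1.01, while Egr1 (-0.35), Nr4a1 (-0.25) and Npas4 (-0.42) did not pass. With the Nts-gated nuclei left out of both sides, 9 members were lower in the Calcr Esr1 Prlr gate, and with no replicate block 7. Fosb, Fos and Egr4 lost the call in both (adjusted p = 0.0845, 0.0751 and 0.0633 without the Nts-gated nuclei in edgeR's test), and Junb with no replicate block (0.0524). Without replicate 3 Egr4 did not pass (0.0555), and without replicate 1 Npas4 did (0.02). Without the filter on low counts Npas4 and Nr4a1 passed (0.036 and 0.041).

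In the Pax6 Eya4 gate 7 of 26 tested members were lower (10.5% of 15582 genes) and 1 higher (8.59% of genes, and 19.1% in either direction). Fosl2 stood at 1.36 ± 0.922 against 7.11 ± 2.46 CPM with no overlap, a log2 difference of -2.26 (adjusted p = 7.01e-05 in edgeR's test). Nr4a3 was lower by 1.15, Npas4 by 1.14 and Vgf by 0.94. Sik1 was the higher member, at 26.8 ± 7.14 against 16.7 ± 2.75 CPM. Fos, Junb, Egr1, Nr4a1 and Arc did not pass, with log2 differences of -1.51, -0.91, -0.86, -0.13 and -0.82. The count of lower members was 4 without replicate 6 and 4 with no replicate block, and Npas4 lost the call in both (adjusted p = 0.076 and 0.0525 in edgeR's test). Vgf lost it in both too (0.0784 and 0.0594), without replicate 4 or 5 (0.0664 and 0.0586), with a stricter gate and in deeper nuclei. Junb passed without replicate 4 (0.0396) and Egr1 without replicate 2 (0.0316), with a stricter gate (0.0352) or without the filter on low counts (0.0258).

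In the Col6a3 Tacr1 gate 7 of 26 tested members were lower (4.78% of 15537 genes) and 0 higher (6.67% of genes, and 11.5% in either direction). At an unadjusted p under 0.05 edgeR gave 1 higher member, and DESeq2 gave 0 after adjustment. Nr4a2 stood at 0.527 ± 0.424 against 5.63 ± 2.44 CPM with no overlap, a log2 difference of -3.30 (adjusted p = 6.99e-06 in edgeR's test). Fos was lower by 1.70, Btg2 by 1.54, Nr4a3 by 1.27 and Nr4a1 by 0.59, so all 3 NR4A receptors were lower here. Junb (-0.66), Egr1 (-0.40), Arc (-0.30) and Npas4 (-0.03) did not pass, and 4 members were lower with no replicate block, where Fos and Btg2 did not pass. Fos also lost the call without replicate 3, 5 or 6 (adjusted p = 0.0877, 0.0965 and 0.152 in edgeR's test), with a stricter gate (0.0951) and in DESeq2 (0.13).

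The Col25a1 Tll1 gate went mostly the other way. There 5 of 25 tested members were higher (7.92% of 15637 genes) and 1 lower (6.38% of genes, and 14.3% in either direction). The 5 were Egr3 (18.3 ± 2.72 against 13.8 ± 2.78 CPM), Per1 (32.2 ± 5.96 against 24.9 ± 3.43 CPM), Nr4a3, Homer1 and Tiparp. Sik1 was lower, at 12.3 ± 3.79 against 17.9 ± 2.94 CPM, a log2 difference of -0.51. Fos, Junb, Egr1, Nr4a1, Arc and Npas4 did not pass, with log2 differences of -0.19 (Npas4) to 0.24 (Nr4a1). Nr4a1 passed without replicate 3 or 4 (adjusted p = 0.0319 and 0.0256 in edgeR's test) and without the nuclei above the 95th percentile of UMIs (0.03). With no replicate block 2 members were higher.

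**Figure D3:**
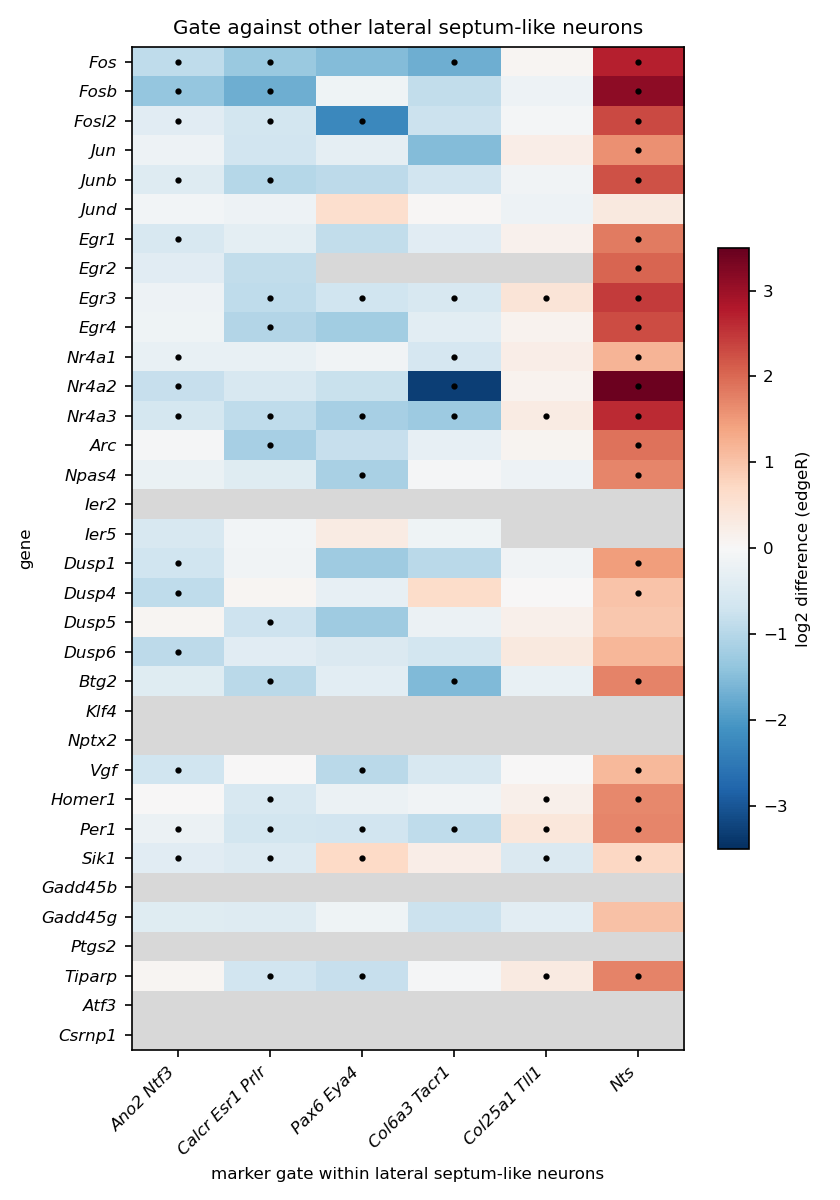
Log2 difference of each of the 34 genes in 6 lateral septum subtype gates, each against all other lateral septum-like neurons, with a dot where edgeR's adjusted p was under 0.05 and grey where the gene was not tested. The Nts column holds 22 higher members and no lower one, while the Ano2 Ntf3 and Calcr Esr1 Prlr columns hold 14 lower members each.

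Members were detected together in the same lateral septum-like nuclei more often than their single shares give. With nuclei thinned to 5000 UMIs (9367 nuclei), 184 pairs of members were expected in at least 5 nuclei from the product of their shares within libraries. The median ratio of observed to expected nuclei was 2.025 over these pairs, with 177 pairs above 1 and 94 above 2. The 403 pairs of 29 upstream regulators had a median of 1.0 and none above 2, measured the same way. A ratio cannot exceed 1 divided by the larger of the 2 single shares, so often detected genes are held nearer to 1. The regulators were detected more often than most members, so the 2 lists are not like for like. Homer1, the most abundant member, had no ratio above 1.53. In all neurons (20422 of 22063 nuclei) 231 member pairs had a median of 2.401. In the 2655 of 10529 astrocyte-like nuclei deep enough, 40 pairs had a median of 0.967, none above 2. These 40 are the pairs expected in at least 5 of these fewer nuclei. The classes were therefore not compared over the same pairs. Unthinned, the medians were 2.067 over 390 pairs in lateral septum-like and 1.063 over 97 pairs in astrocyte-like nuclei. No p is given for these ratios, since nuclei are not replicates and the pairs share genes.

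The pair with the highest ratio was Fosb and Egr3. They were seen together in 44 nuclei where 5.1 were expected, a ratio of 8.59. Fosb and Nr4a3 were seen together in 50 nuclei where 6.3 were expected, Fosl2 and Junb in 37 where 5.3 were expected, and Fosl2 and Nr4a3 in 109 where 16.7 were expected. Each of these pairs was above 1 in all 6 libraries. Egr3 and Nr4a3, the pair with the most nuclei among these, were seen together in 160 against 32.6 expected, a ratio of 4.91. The median over a member's pairs was 4.23 for Fosb, 3.7 for Egr3, 3.44 for Fos, 3.35 for Fosl2, 3.31 for Junb and 3.26 for Nr4a3. It was 1.26 for Homer1, 1.54 for Jund and 0.67 for Ier5, the lowest of these.

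**Figure D4:**
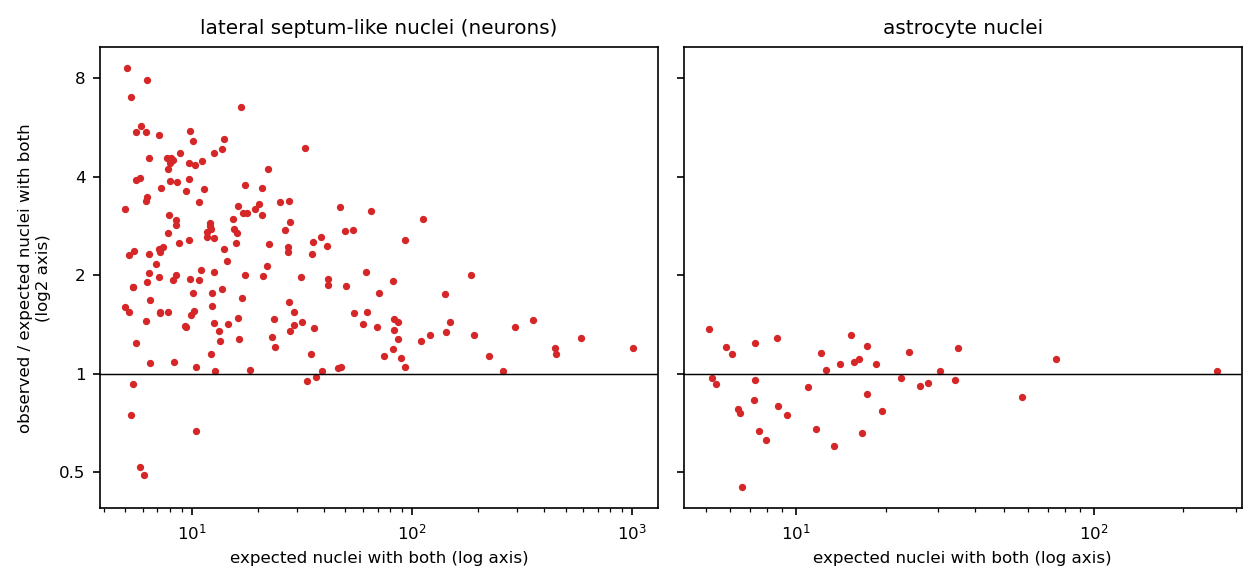
Ratio of observed to expected nuclei against the expected number (both log axes) for pairs of members in lateral septum-like and in astrocyte-like nuclei thinned to 5000 UMIs, 1 point per pair. In lateral septum-like neurons 94 of 184 pairs lie above 2, and in astrocyte-like nuclei 0 of 40. The pairs shown are not the same in the 2 classes.

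Nuclei with several members were few. At 5000 UMIs, 662 of 9367 lateral septum-like nuclei held at least 3 members besides Homer1 and Tiparp, a share of 7.25 ± 2.28% over libraries. The share was 39.6 ± 11.4% in the Nts gate (119 of 298 nuclei, 30.0 to 59.3% per library). It was 6.13 ± 1.748% in the other nuclei (4.18 to 8.92%), so the ranges did not overlap. As said above, the Nts gate was known beforehand to hold activity genes. The Nts gate held 17.98% of these 662 nuclei, and 479 of the 662 had 0 Nts UMIs. In the same thinned nuclei, Nr4a3 was detected in 33.5 ± 10.9% of the Nts gate and 6.03 ± 0.796% of the others, and Fos in 6.87 ± 4.204% and 0.802 ± 0.530%. The share with at least 3 members was 15.1 ± 6.22% at 1 Nts UMI, 9.45 ± 4.19% in the Col25a1 Tll1 gate and 3.32 ± 2.81% in the Col6a3 Tacr1 gate. Across classes thinned to 2000 UMIs it was 2.29 ± 1.13% in lateral septum-like neurons, 0.208 ± 0.334% in glutamatergic-like neurons, 0.36 ± 0.255% in astrocyte-like and 7.59 ± 5.26% in endothelial-like nuclei (unthinned 25.8%, 8.402%, 1.26% and 9.91%).

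In neurons the members varied more between the 6 libraries than most genes, although the labels give the libraries no difference. Within lateral septum-like neurons the biological coefficient of variation, the spread between libraries beyond counting error, had a median of 0.159 over 26 members and 0.0644 over all 16329 genes fitted. Of the 26, 20 lay above the 90th percentile of all genes (0.119). Above the same percentile taken in their own class lay 17 of 30 in all neurons, 7 of 17 in astrocyte-like and 0 of 8 in oligodendrocyte-like nuclei. In all neurons the median was 0.145 over 30 members against 0.0662, in astrocyte-like nuclei 0.0951 over 17 against 0.0687 and in oligodendrocyte-like nuclei 0.0971 over 8 against 0.0758. The coefficient depends on level, so these gaps are in part those of low genes. Above the trend for genes of their level lay 24 of 26 members in lateral septum-like neurons (33.2% of all genes) and 26 of 30 in all neurons (31.2%). It was 11 of 17 in astrocyte-like (35.4%) and 5 of 8 in oligodendrocyte-like nuclei (33.3%). Fos had 0.396 and Fosb 0.377 in lateral septum-like neurons, while Homer1 had 0.077.

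In neurons as a whole and in lateral septum-like neurons, replicate 6 stood at the top for most members. Fos in lateral septum-like neurons stood at 1.04, 1.03, 2.04, 1.41, 2.87 and 5.37 CPM in replicates 1 to 6, a 5.19-fold range that was 2.77-fold without replicate 6. Nr4a3 stood at 19.1, 16.6, 17.9, 22.8, 24.7 and 35.6 CPM and Junb at 3.23, 3.23, 4.93, 3.83, 3.96 and 8.04 CPM. Homer1 had a 1.32-fold range, with replicate 5 highest at 366 CPM. Of the 29 members with at least 60 UMIs in this class, 20 were highest in replicate 6 and 7 in replicate 5, and 18 were lowest in replicate 2. In the Nts gate 13 of 18 such members were highest in replicate 6, in all neurons 25 of 33, and in astrocyte-like nuclei 9 of 20. In endothelial-like nuclei replicate 5 was highest for 5 of 7 and replicate 6 for none. Replicate 6 was highest for 2 of 8 in glutamatergic-like neurons, 3 of 12 in oligodendrocyte-like, 3 of 12 in ependymal-like and 1 of 4 in microglia-like nuclei. No such count was made over all genes, so whether this order is particular to the members was not tested. Summed neuron markers of lateral septum-like neurons were 9080 CPM in replicate 6, within the 8700 to 9573 CPM of all libraries. Whether the libraries differed in animals, handling or dissection was not tested, as no source gives these.

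**Figure D5:**
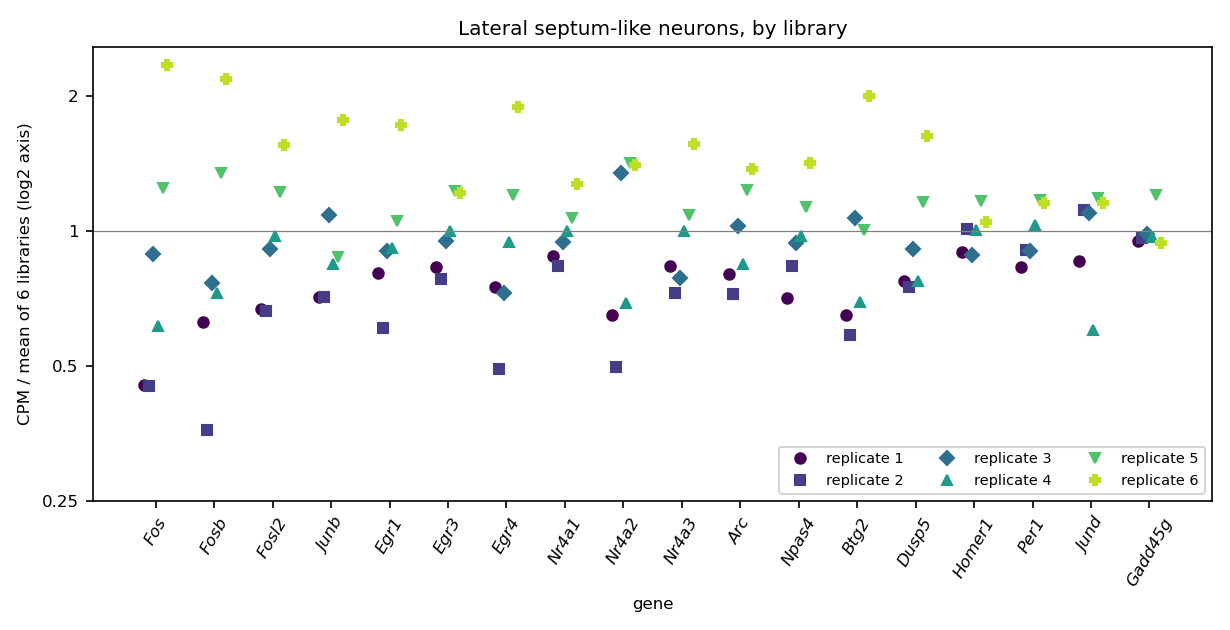
Level of 18 members in lateral septum-like neurons of each library, divided by the mean of the 6 libraries (log2 axis). Replicate 6 is highest for most genes, up to Fos at 5.37 CPM against a mean of 2.29 CPM, while Homer1 stays between 277 and 366 CPM.

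The genes that act upstream of the members and those known to follow them were counted in the same fits. Of 29 upstream regulators (CREB, SRF, MEF2 and CRTC factors, CaMK and MAPK kinases, calcineurin), 7 were higher and 4 lower in the Nts gate. Of all genes tested there, 8.06% were higher and 6.12% lower. The median log2 difference of the regulators was 0.05, with calls in both directions. Crem, a CREB relative with an inducible form, stood at 38.5 against 23.3 CPM (log2 difference 0.74), and Mef2c at 86.6 against 179 CPM (-1.04). Of 17 later-response genes 12 were tested there, with 7 higher, 2 lower and a median of 0.79. Among the higher ones were the chromatin remodeller gene Baz1a, at 7.38 against 1.82 CPM, and the kinase gene Plk2, at 16.2 against 4.98 CPM. Between neurons and astrocyte-like nuclei 15 of 29 upstream regulators were higher and 10 lower, as were 10 and 3 of 15 tested later-response genes. Of all genes tested in that comparison, 42.3% were higher and 40.4% lower. Against glutamatergic-like neurons 4 of 13 tested later-response genes were higher in the lateral septum-like class and 7 lower, among them Bdnf, the gene of a secreted nerve growth factor, at 1.63 against 22.3 CPM. The shares of all genes were 19.3% higher and 19.3% lower. In endothelial-like against astrocyte-like nuclei 12 of 28 upstream regulators were higher and 4 lower, and of 11 later-response genes 5 were higher and 3 lower. All genes tested there were 22.0% higher and 30.4% lower. The shares of all genes called are those given above for each comparison.

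Some members were too rare for a test in most classes. Atf3 (60 UMIs), Ier2 (74 UMIs) and Ptgs2 (31 UMIs in all neurons together) were tested in none of the 12 comparisons. Csrnp1 and Gadd45b, with 103 and 135 UMIs in neurons, were tested only against astrocyte-like and oligodendrocyte-like nuclei. Where a member passed the filter on low values only because 1 class held it, its difference was fixed in part by that filter, so the counts above are no measure of all 34.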

How the data were processed

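RNA of the 6 libraries was made with Chromium Single Cell 3' v3 kits, per the labels' protocols. Deposited were raw counts of UMIs for each gene in each barcode, as the authors obtained them. The submitters' processing notes name STAR and Cell Ranger 3.1.0, whereas the file headers name Cell Ranger 5.0.0. Neither the genome build nor the use of intron reads is stated in the sources used here. All barcodes in the deposited matrices had already been called as cells. The series title speaks of nuclei and the protocol of cells, and they are called nuclei on the word of the title.

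The members and the lists were chosen with earlier results of these data known, and the gate thresholds were set after the data were seen. Nuclei with at least 500 genes were gated on markers: a class needed its summed marker level to be at least 3 times (neurons 2 times) the background level and at least 2 (neurons 3) markers present beyond a Poisson background, lateral septum-like neurons in addition Trpc4 and Dgkg beyond 3 times their background, a GABAergic marker and no glutamatergic one beyond background, and a subtype at least 2 markers, or 2 UMIs of Nts. Of lateral septum-like nuclei, 153 lay within 1.5 times of the cut. Counts were summed per library and class and tested with edgeR 4.0.16 in R 4.3.3 (quasi-likelihood test, TMM scaling, its default filter on low counts, Benjamini-Hochberg over all genes tested, threshold 0.05). Both classes of a comparison come from the same library, so library was a block in every fit. Genes named are the members with the largest differences that passed in the same direction in 6 libraries, up to 4 each way, and Fos, Junb, Egr1, Nr4a1, Arc and Npas4 always. Others are named as examples after their values were seen. Co-detection was taken after thinning each nucleus to 5000 UMIs and class shares after thinning to 2000. The fitting script was tested on simulated data. Alternatives were DESeq2 1.42.0, no filter, other gates and depths, no replicate block and leaving out each library. Upstream sequences are from RefSeq (GRCm38.p6), with no entry used here for 8 members.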

Additional observations from a re-analysis of the deposited data

Results flagged for a closer look

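In 80 groups of 6 library values, 6 had a highest library that lay far from the others, by a gap that is large relative to the whole range. Lowest libraries were checked the same way, and none stood apart. Chance alone gives about 1 in 20 groups with such a gap at either end, if the values follow a normal distribution. In lateral septum-like neurons, replicate 6 stood apart for Junb (8.039 CPM, with the next library at 4.932 CPM), for Btg2 (9.251 against 4.932 CPM) and for Dusp4 (5.009 against 3.236 CPM). Gadd45g stood apart in the same class through replicate 5, at 3.15 against 2.581 CPM. In all neurons Egr1 stood at 11.233 CPM in replicate 6 and at no more than 6.862 CPM in the others. In pericyte-like nuclei, of which there were 28 to 50 per library, the members without Homer1 and Tiparp summed to 501.213 CPM in replicate 6 and to no more than 239.068 CPM elsewhere. Of these 6 values 5 belong to replicate 6, and values of the same library are not independent of each other.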

How the results depend on the processing

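For single genes, 1612 values under an alternative kept their direction and their side of the threshold, 51 lost and 17 gained the call, and 10 changed sign, none of which passed before. Of summary values 542 stayed within their limits and 21 moved. For the Nts gate the count of higher members was 20 to 24 without any 1 library, and 22 with nuclei of 10000 UMIs or more, an alternative chosen after seeing the data, as was leaving out Nts-gated nuclei. With a stricter gate, lateral septum-like against striatal-like neurons gave 0 lower members in place of 5 and 3290 genes called in place of 5126, Fos went from 0.56 to -0.36, and the summed level of striatal-like neurons from 178.1 to 138.4 CPM. With the same gate the median spread was 0.144 in neurons (0.145 before) and 0.168 in lateral septum-like neurons (0.159). It was 0.0963 in astrocyte-like (0.0951) and 0.0964 in oligodendrocyte-like nuclei (0.0971). For the spread any difference at all was counted as moved, and these differences are small. Lower members in endothelial-like nuclei were 2 with 1000 genes or more per nucleus. For the Ano2 Ntf3 gate DESeq2 gave 8 lower members in place of 14 and 2790 genes called in place of 4227. With no replicate block, that is without the pairing by library, lower members were 5 (Ano2 Ntf3), 7 (Calcr Esr1 Prlr), 4 (Pax6 Eya4) and 4 (Col6a3 Tacr1), and higher members 2 (Col25a1 Tll1). Without Nts-gated nuclei the Ano2 Ntf3 gate had 1 higher member and Arc at 0.02, and the Calcr Esr1 Prlr gate 9 lower members. Without the nuclei above the 95th percentile of UMIs, Npas4 in the Col6a3 Tacr1 gate was 0.11. Leaving out each library in turn gave 3 to 5 lower members for lateral septum-like against striatal-like neurons, 1 to 2 for endothelial-like nuclei and 4 to 9 for the Pax6 Eya4 gate. It took Egr1 against striatal-like neurons over -0.31 to 0.1, Arc in the Ano2 Ntf3 gate over -0.13 to 0.1, Fos in the Col25a1 Tll1 gate over -0.23 to 0.26 and Npas4 in the Col6a3 Tacr1 gate over -0.24 to 0.12. The cause was not tested. Depth limits the endothelial-like, microglia-like, striatal-like, glutamatergic-like and small subtype classes, where many members rest on fewer than 60 UMIs and a missing call says little.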
